A study of Homo sapiens with 32 samples.

Results

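The mitochondrial ribosomal protein genes were taken as every gene of the deposited expression table whose symbol is MRPL or MRPS followed by a number and at most 1 letter. The rule found 78 genes among the 24249 of the table, 49 with an MRPL symbol (large subunit) and 29 with an MRPS symbol (small subunit). They were measured by RNA sequencing of the human cell line MM.1S, which derives from multiple myeloma, a cancer of plasma cells. All cells were first exposed for 1 h either to the vehicle DMSO or to carfilzomib (Cfz), a proteasome inhibitor, and then cultured in new medium for 12 h. That medium held DMSO or all-trans retinoic acid (ATRA) at 10 µM, a form of vitamin A that acts through retinoic acid receptors in the nucleus. This gave 4 groups: DMSO throughout (n = 3 libraries), ATRA without Cfz (n = 3), Cfz without ATRA (n = 1) and Cfz followed by ATRA (ATRA+Cfz, n = 1). The labels give no dose for carfilzomib. The groups are 1 cell line, and each treatment with Cfz is 1 library, so that its values have no replicate check.

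Mitochondria keep a small genome that encodes core subunits of the respiratory chain, and they translate it on ribosomes of their own. The mitochondrial ribosome takes its RNAs from that genome, whereas all of its proteins are encoded in the nucleus, made in the cytosol and imported. Some of these proteins have a counterpart in bacterial ribosomes and others exist only in mitochondria. Plasma cells and myeloma cells make large amounts of protein, which loads the proteasome and takes energy that mitochondria supply. The symbols follow the subunit with exceptions: MRPS30 and MRPS18A sit in the large subunit of the assembled ribosome, and MRPS36 is now regarded as a component of the alpha-ketoglutarate dehydrogenase complex. By place in the structure, 51 of the genes belong to the large subunit (30 with a bacterial counterpart and 21 specific to mitochondria) and 26 to the small subunit (16 and 10).

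Depth was 14136937 to 17155331 reads per library. Levels are in FPM, fragment counts scaled to the same total in every library. The libraries carried the plasma cell markers of the cell line (XBP1 at 800 to 2656 FPM, SDC1 at 330 to 1270 FPM), while the markers of other blood cells present in the table were near 0 (CD3E at 0.214 to 1.54 FPM, S100A9 at 0.060 to 1.01 FPM). DMSO 3 stood apart from the other controls: genes of the mitochondrial genome took 5.85% of its FPM, against 4.12% and 4.09% in DMSO 1 and DMSO 2, 3.67% to 3.89% with ATRA, 5.43% with Cfz and 5.72% with ATRA+Cfz. Counts of called MRPL and MRPS genes are therefore also given without DMSO 3. Tests were made with limma on log2(FPM + 0.5) in 1 fit of 8 libraries over 15827 genes, and a gene was called where the Benjamini-Hochberg adjusted p was under 0.05. Fold changes below are differences on that log2 scale, with their standard error.

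Every one of the 78 genes was expressed. All were tested, the lowest value of any of them in any library was 10.9 FPM, the highest was 172 FPM, and the fewest reads behind a value were 164. Together they made up 0.401% to 0.445% of all FPM. With DMSO and per kb of transcript (the median length of the gene's annotated transcripts), the highest levels were those of MRPL51 (192 FPM per kb), MRPS33 (116), MRPL42 (108) and MRPL3 (94.3), and the lowest were those of MRPL57 (7.05), MRPL22 (10.7), MRPS31 (12.1) and MRPS11 (14.001). MRPL51 and MRPL42 are mitochondria-specific proteins of the large subunit, and MRPL3 and MRPL22 are large subunit proteins with bacterial counterparts, MRPL22 at the exit tunnel. The genes lie on 21 chromosomes, with 8 of them on chromosome 17. Many start next to another gene: 32 have an annotated gene on the opposite strand that starts within 1000 bp, which codes for a protein in 28 cases, and MRPS11 and MRPL46 start 34 bp from each other. The same number, 32, overlap a gene on the opposite strand, and since no source used here gives the strand setting of the counting, such pairs may share reads.

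Promoters are described here for the genes as a set and shown for some members with large changes in the results below. Whether promoter letters bear on those changes was not tested. RefSeq promoters (GRCh38.p14, 250 bases before to 50 after the start) were matched for 69 of the 78 genes. For 64 of them the bases after the start also stand in a GENCODE transcript of the gene. Of 9 motifs searched on both strands, CCGGAAG, the core bound by ETS factors such as GABP, was in 29 of 69 promoters (42.0%), against 14.2% of the 15842 promoters of protein-coding genes. AAGATGGCG, the core bound by YY1, was in 13 of 69 (18.8%), against 2.74%. The motif of nuclear respiratory factor 1 was in 8 of 69 (11.6%), against 8.57%. That of ZNF143 was in 2 of 69 (2.90%), against 1.54%. The E-box CACGTG, which MYC and MAX bind, was in 6 of 69 (8.70%), against 8.88%, GGGCGG (SP1) in 60.9%, against 58.5%, CCAAT in 20 of 69, against 36.4%, and the antioxidant element TGACNNNGC in 11.6%, against 14.3%. The retinoic acid element with a spacer of 5 was in none of these promoters, of the members or of other genes, so that its absence separates nothing. At least 1 of the ETS, YY1 and nuclear respiratory factor letters was in 43 of 69 promoters (62.3%), against 22.8% of all. The letters of the nuclear respiratory factor and ZNF143 motifs were widened after the sequences had been seen, and a match is a description of letters, not a binding site.

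The 4 large or small subunit genes with the largest rise with ATRA that have a matched promoter are printed from 170 bases before the start to 30 after it, with the gene that fell most with ATRA and the gene that fell most with ATRA+Cfz for contrast. Capitals mark letters of the nuclear respiratory factor, ETS, YY1, ZNF143 and E-box motifs, on either strand, and the marked stretches do not overlap. The windows are chr1:156741059-156741258 (minus strand) for MRPL24, chr7:141014923-141015122 (minus) for MRPS33, chr5:1799808-1800007 (minus) for MRPL36, chr22:19432375-19432574 (plus) for MRPL40, chr21:34073408-34073607 (plus) for MRPS6 and chr20:3045882-3046081 (plus) for MRPS26, all on GRCh38.p14.
MRPL24: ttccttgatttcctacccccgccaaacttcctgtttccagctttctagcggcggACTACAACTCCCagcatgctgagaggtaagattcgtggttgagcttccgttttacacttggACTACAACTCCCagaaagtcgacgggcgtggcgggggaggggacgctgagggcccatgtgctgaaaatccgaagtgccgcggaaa
MRPS33: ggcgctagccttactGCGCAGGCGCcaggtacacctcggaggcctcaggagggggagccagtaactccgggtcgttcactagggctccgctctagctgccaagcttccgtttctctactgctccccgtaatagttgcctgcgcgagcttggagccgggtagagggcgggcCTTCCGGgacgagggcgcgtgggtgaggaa
MRPL36: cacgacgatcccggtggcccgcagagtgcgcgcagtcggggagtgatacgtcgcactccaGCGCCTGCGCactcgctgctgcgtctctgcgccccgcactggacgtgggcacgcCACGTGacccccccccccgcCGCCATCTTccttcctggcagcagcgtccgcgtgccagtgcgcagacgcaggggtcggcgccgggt
MRPL40: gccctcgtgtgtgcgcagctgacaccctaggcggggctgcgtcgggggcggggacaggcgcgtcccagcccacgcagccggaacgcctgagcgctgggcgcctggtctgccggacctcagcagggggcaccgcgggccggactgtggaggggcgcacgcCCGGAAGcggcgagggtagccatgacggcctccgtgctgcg
MRPS6: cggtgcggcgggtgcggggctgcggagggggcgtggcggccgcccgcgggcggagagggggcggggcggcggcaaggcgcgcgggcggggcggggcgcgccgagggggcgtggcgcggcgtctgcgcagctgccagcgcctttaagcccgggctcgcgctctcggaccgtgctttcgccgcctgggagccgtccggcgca
MRPS26: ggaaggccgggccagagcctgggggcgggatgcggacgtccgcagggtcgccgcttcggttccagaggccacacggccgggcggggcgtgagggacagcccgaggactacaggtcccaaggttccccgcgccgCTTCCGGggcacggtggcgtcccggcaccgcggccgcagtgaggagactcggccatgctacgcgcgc
MRPL24 carries the ZNF143 letters at 2 places, MRPS33 a nuclear respiratory factor match upstream and an ETS match at the start itself, MRPL36 a nuclear respiratory factor, an E-box and a YY1 match, and MRPL40 an ETS match close to the start. MRPS26 carries an ETS match, and MRPS6 holds none of the 5 marked motifs in this window. The ETS core was in 17 of the 34 matched promoters of genes that rose with ATRA, in 1 of 4 of those that fell, in 6 of 15 that rose with ATRA+Cfz and in 5 of 17 that fell with it.

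The 2 subunits were first compared as sums over their genes. Large subunit genes summed to 2429, 2411 and 2500 FPM with DMSO (2447 ± 47.0, SD, n = 3) and to 2613, 2617 and 2647 FPM with ATRA (2625 ± 18.6, SD, n = 3), 7.30% more. Small subunit genes summed to 1615, 1598 and 1662 FPM with DMSO (1625 ± 32.9, SD, n = 3) and to 1799, 1828 and 1804 FPM with ATRA (1810 ± 15.2, SD, n = 3), 11.4% more. For both subunits every ATRA library lay above every DMSO library. With Cfz alone the sums were 2467 and 1648 FPM, 0.811% and 1.44% above the DMSO mean and inside the range of the DMSO libraries. With ATRA+Cfz the large subunit sum was 2377 FPM, 2.86% under the DMSO mean, and the small subunit sum 1713 FPM, 5.44% above it. The direction of the large subunit value depends on the scaling: it was 2419 FPM against 2399 with median-ratio scaling and 2496 against 2420 with a correction for GC content and length. No test was made on these sums, because the genes were chosen with results known. In bulk samples, fewer cells of a kind and less RNA per cell cannot be told apart.

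The ratio of the small to the large subunit sum does not depend on the library total. It was 0.665, 0.663 and 0.665 with DMSO (0.664 ± 0.001, SD, n = 3), 0.689, 0.698 and 0.682 with ATRA (0.690 ± 0.008, SD, n = 3), 0.668 with Cfz and 0.721 with ATRA+Cfz. The DMSO libraries, DMSO 3 included, lay within 0.663 to 0.665, all ATRA libraries were above them, and the ATRA+Cfz library was above all ATRA libraries. The same order held with the genes placed by structure (0.582, 0.608, 0.587 and 0.628 for DMSO, ATRA, Cfz and ATRA+Cfz) and with the GC content and length correction (0.662, 0.695, 0.664 and 0.716). A few abundant genes weigh heavily in it: MRPS33 alone made 33.6 FPM of the 185 FPM gained by the small subunit with ATRA, and 29.5 FPM of the 88.4 FPM gained with ATRA+Cfz. In the large subunit the gain of 179 FPM with ATRA was made of 219 FPM in genes that were higher and -39.9 FPM in genes that were lower, whereas with ATRA+Cfz these were 133 FPM and -203 FPM.

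**Figure D1:**
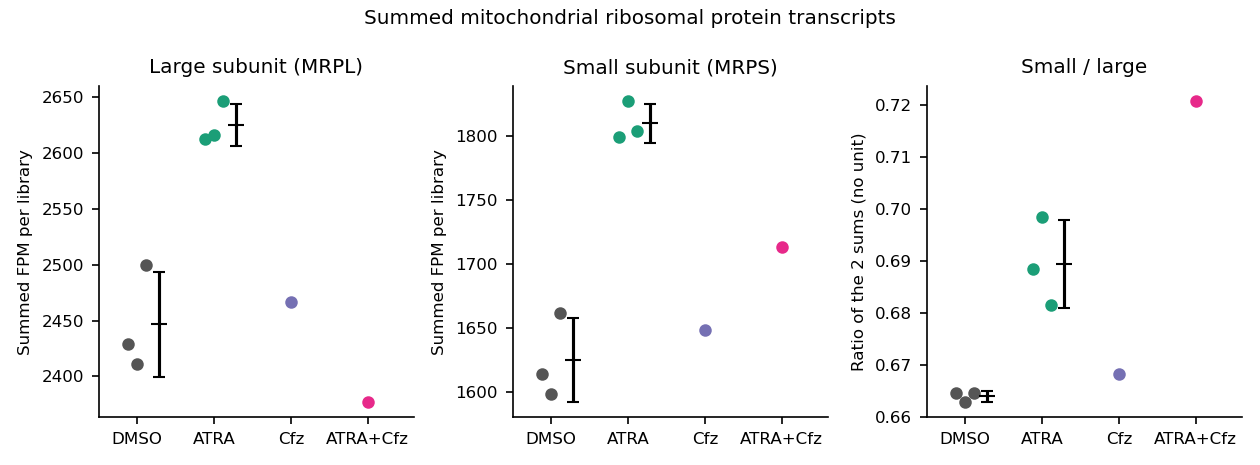
Summed FPM of the 49 MRPL genes, of the 29 MRPS genes, and the ratio of the small to the large subunit sum, in each library. Points are libraries and bars the mean ± SD of 3 libraries. Axes do not start at 0. The sums of the ATRA libraries lie above those of DMSO, and the ratio is highest, 0.721, in the ATRA+Cfz library, whose large subunit sum lies under the DMSO libraries on this scale but not with median-ratio scaling or the GC correction.

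ATRA alone raised 36 of the 78 genes and lowered 5, while 37 were not called. Over all genes tested, 21.3% were called higher and 27.4% lower. The rises were small: the median of the 78 genes was 0.13 on the log2 scale, against -0.03 over all genes tested, with a range from -0.28 to 0.51, and 62 of 78 values were above 0. In the large subunit 20 of 49 genes rose and 3 fell (median 0.10), and in the small subunit 16 of 29 rose and 2 fell (median 0.15). By structure, 12 of 30 large subunit genes with a bacterial counterpart rose and 2 fell, 9 of 21 mitochondria-specific ones rose and 2 fell, 8 of 16 small subunit genes with a counterpart rose and 1 fell, and 7 of 10 mitochondria-specific ones rose and none fell. The rises took in 4 of 5 genes of the stalk, which recruits translation factors, with 1 that fell, 4 of 8 at the exit tunnel, through which the new protein leaves, and 6 of 9 of the central protuberance, which contacts the tRNAs. The number of falls depends on single libraries and on scaling: 3, 3 and 2 genes were called lower without ATRA 1, 2 or 3, and 2 with median-ratio scaling. Without DMSO 3, 39 genes were called higher and 5 lower.

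**Figure D2:**
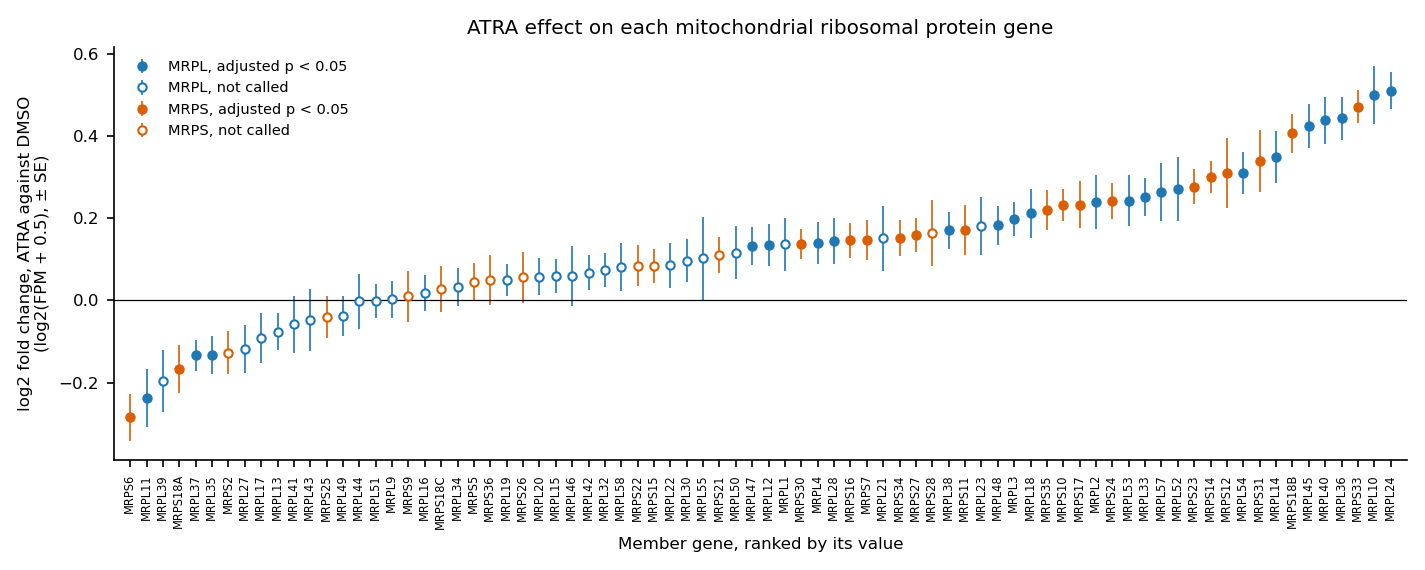
Log2 fold change of each of the 78 genes with ATRA against DMSO, on log2(FPM + 0.5), ranked from the lowest to the highest. Points are the fitted differences of 3 against 3 libraries, bars their standard errors, colours the subunit by symbol, and filled points the genes called at an adjusted p under 0.05. The values run from -0.28 (MRPS6) to 0.51 (MRPL24), and both subunits are spread over the whole range.

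MRPL24, a protein at the exit tunnel of the large subunit (chr1:156737303-156741590), rose most. It stood at 59.8, 61.8 and 64.5 FPM with DMSO and at 87.1, 86.6 and 92.0 FPM with ATRA, a log2 fold change of 0.51 (SE 0.04, limma adjusted p = 2.3e-06). MRPL10 (chr17:47823272-47831534), the base of the stalk on which the MRPL12 copies sit, went from 24.1, 23.8 and 26.4 FPM to 37.7, 36.2 and 32.0 FPM, by 0.50 (SE 0.07, limma adjusted p = 0.00011). In both genes every ATRA library was above every DMSO library, though the ATRA libraries of MRPL10 were the more spread. MRPS33 (chr7:141002610-141015228), a mitochondria-specific protein of the small subunit head, had the largest rise of the small subunit. Its levels were 85.0, 85.4 and 88.1 FPM with DMSO and 120, 124 and 115 FPM with ATRA, a change of 0.47 (SE 0.04, limma adjusted p = 1.8e-06), and it is also among the most abundant of the genes per kb.

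MRPL36 (chr5:1798386-1801366), a large subunit protein with a bacterial counterpart, rose from 32.0, 34.0 and 31.1 FPM to 43.4, 45.2 and 43.8 FPM, by 0.44 (SE 0.05, limma adjusted p = 2.7e-05). MRPL40 (chr22:19431902-19436075), a mitochondria-specific protein of the central protuberance, rose from 25.1, 27.5 and 26.0 FPM to 36.8, 35.3 and 34.8 FPM, by 0.44 (SE 0.06, limma adjusted p = 5.6e-05). Neither gene's groups came near to overlapping. MRPL45, which holds the ribosome to the inner membrane beside the exit tunnel, rose from 41.4, 37.5 and 37.1 FPM to 51.6, 53.7 and 50.8 FPM, by 0.42 (SE 0.05, limma adjusted p = 4.8e-05). Its value is uncertain where reads could also come from near-identical copies, of which MRPL45P2 stood at 1.69 to 3.39 FPM. MRPL14, a protein at the face of the large subunit that meets the small one, rose from 26.6, 27.5 and 30.4 FPM to 36.2, 34.3 and 37.3 FPM, by 0.35 (SE 0.06, limma adjusted p = 0.00075).

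The 5 genes that fell with ATRA did so by less. MRPS6 (chr21:34073224-34143034), a small subunit protein with a bacterial counterpart, went from 47.3, 43.9 and 48.6 FPM to 39.3, 39.3 and 36.0 FPM, by -0.28 (SE 0.06, limma adjusted p = 0.0015). MRPL11, a stalk-base protein next to MRPL10 and MRPL12, stood at 47.3, 47.3 and 47.6 FPM with DMSO and at 45.0, 35.9 and 39.9 FPM with ATRA, a change of -0.24 (SE 0.07, limma adjusted p = 0.016). The fall of MRPL11 leans on ATRA 2, without which it was not called, while that of MRPS6 was called with any library left out. MRPL37 fell by -0.13 (119, 121 and 126 against 114, 112 and 109 FPM, SE 0.04, limma adjusted p = 0.013) and MRPL35 by -0.13 (86.6, 85.5 and 94.97 against 81.2, 79.7 and 82.5 FPM, SE 0.05, limma adjusted p = 0.035). Both calls are near the threshold: that of MRPL37 was lost without ATRA 3 and that of MRPL35 without DMSO 3 (-0.08) or any 1 ATRA library, and both were lost with median-ratio or TMM scaling.

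The mitochondrial ribosome holds 3 proteins that descend from the bacterial protein S18, and their genes differed. MRPS18B, a mitochondria-specific protein of the small subunit, stood at 47.1, 46.5 and 50.4 FPM with DMSO and at 65.5, 63.8 and 62.2 FPM with ATRA, a rise of 0.41 (SE 0.05, limma adjusted p = 2.5e-05). MRPS18A, which takes a place in the large subunit, stood at 24.5, 24.1 and 24.4 FPM with DMSO and at 21.6, 22.4 and 20.9 FPM with ATRA, a fall of -0.17 (SE 0.06, limma adjusted p = 0.034). MRPS18C, the member at the place of the bacterial protein, lay between 44.2 and 48.1 FPM in the DMSO libraries and between 45.9 and 50.8 FPM in the ATRA libraries, so that its groups overlapped (0.03, SE 0.06, limma adjusted p = 0.71). The family thus held 1 gene that rose, 1 that fell and 1 that was not called. The call of MRPS18A was lost without DMSO 1, DMSO 2, ATRA 1 or ATRA 3 and with median-ratio or TMM scaling.

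The remaining genes with a known place outside the symbol's rule, or with a second function, moved little. MRPS30, a large subunit protein despite its symbol, rose from 87.0, 84.8 and 83.8 FPM to 92.9, 95.5 and 92.9 FPM, by 0.14 (SE 0.04, limma adjusted p = 0.0099). MRPL12, the stalk protein that has also been reported to bind the mitochondrial RNA polymerase, rose from 82.2, 83.9 and 73.8 FPM to 86.7, 86.8 and 89.9 FPM, by 0.14 (SE 0.05, limma adjusted p = 0.045). DMSO 3 was the low library of MRPL12, and its call was lost without DMSO 3 (0.08) or any 1 ATRA library. MRPL58, a peptidyl-tRNA hydrolase that rescues stalled ribosomes and is built into the large subunit, lay at 22.8, 23.7 and 24.4 FPM in the DMSO libraries and at 24.6, 25.7 and 24.7 FPM in the ATRA libraries (0.08, SE 0.06, limma adjusted p = 0.29). MRPS36, at 26.5 to 28.6 FPM and 27.0 to 29.5 FPM, was not called either (0.05, SE 0.06, limma adjusted p = 0.54).

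The pulse of Cfz without ATRA left the genes divided. It raised 11 of 78 (all genes tested: 7.94% higher), 6 in the large and 5 in the small subunit, and lowered 7 (all genes tested: 17.0% lower), 3 and 4. The median was -0.00 against -0.08 over all genes tested. MRPS11, the small subunit protein at the exit of the mRNA, stood at 30.8, 30.7 and 31.1 FPM with DMSO and at 43.2 FPM with Cfz, a rise of 0.48 (SE 0.09, limma adjusted p = 0.0022). Its neighbour MRPL46, which starts 34 bp away on the other strand, was at 25.3, 21.7 and 25.1 FPM with DMSO and 20.3 FPM with Cfz (-0.24, SE 0.10, limma adjusted p = 0.12). MRPL45 rose by 0.47 to 53.6 FPM (SE 0.08, limma adjusted p = 0.0012), above all DMSO libraries and about as high as with ATRA. MRPS15, a small subunit protein with a bacterial counterpart, rose by 0.28 to 84.1 FPM from 68.0, 67.8 and 71.8 FPM (SE 0.06, limma adjusted p = 0.0053).

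The other large rises with Cfz were those of MRPL18, which lies in the central protuberance (0.30, SE 0.08, limma adjusted p = 0.022), MRPS9, a small subunit head protein (0.30, SE 0.09, limma adjusted p = 0.029), and MRPS18A. MRPS18A, which fell with ATRA, was at 29.97 FPM with Cfz against 24.1 to 24.5 FPM with DMSO (0.30, SE 0.08, limma adjusted p = 0.023). Among the falls, MRPS12, a protein of the decoding centre, stood at 28.7, 27.0 and 22.9 FPM with DMSO and at 19.0 FPM with Cfz (-0.45, SE 0.12, limma adjusted p = 0.019), although it rose with ATRA (29.9, 33.5 and 34.1 FPM, 0.31, SE 0.09, limma adjusted p = 0.010). MRPS24, which lines the mRNA entry, went from 69.5, 66.4 and 67.2 FPM to 56.3 FPM (-0.26, SE 0.06, limma adjusted p = 0.010), and it too rose with ATRA (77.4, 83.8 and 79.4 FPM, 0.24, SE 0.04, limma adjusted p = 0.00076). MRPS36 (21.7 FPM, -0.32), MRPL15 (70.0 FPM, -0.24), MRPL42 (85.3 FPM, -0.22) and MRPL16 (57.5 FPM, -0.19) completed the 6 largest falls, with limma adjusted p-values of 0.019, 0.011, 0.019 and 0.044. The rises of MRPL18, MRPS9 and MRPS18A and the falls of MRPS36 and MRPL16 were not called without DMSO 2, that of MRPS9 also without DMSO 1 or ATRA 1, and that of MRPL16 also without any 1 ATRA library. The falls of MRPS36, MRPL15, MRPL42 and MRPL16 were lost with median-ratio scaling, and those of MRPL42 and MRPL16 also with TMM scaling. With the GC correction MRPS36, MRPL42 and MRPL16 were not called. With the DESeq2 test none of the 6 falls was called, nor were the rises of MRPS9 and MRPS18A. The number of rises was 5 without DMSO 2, and without DMSO 3 there were 16 rises and 10 falls. The split of the calls rests on the scaling: 61.1% of the called members were higher, against 88.2% with median-ratio and 76.5% with TMM scaling and 83.3% with the GC correction. Over all genes tested the share was 31.8%, against 47.8%, 43.6% and 54.0%.

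**Figure D3:**
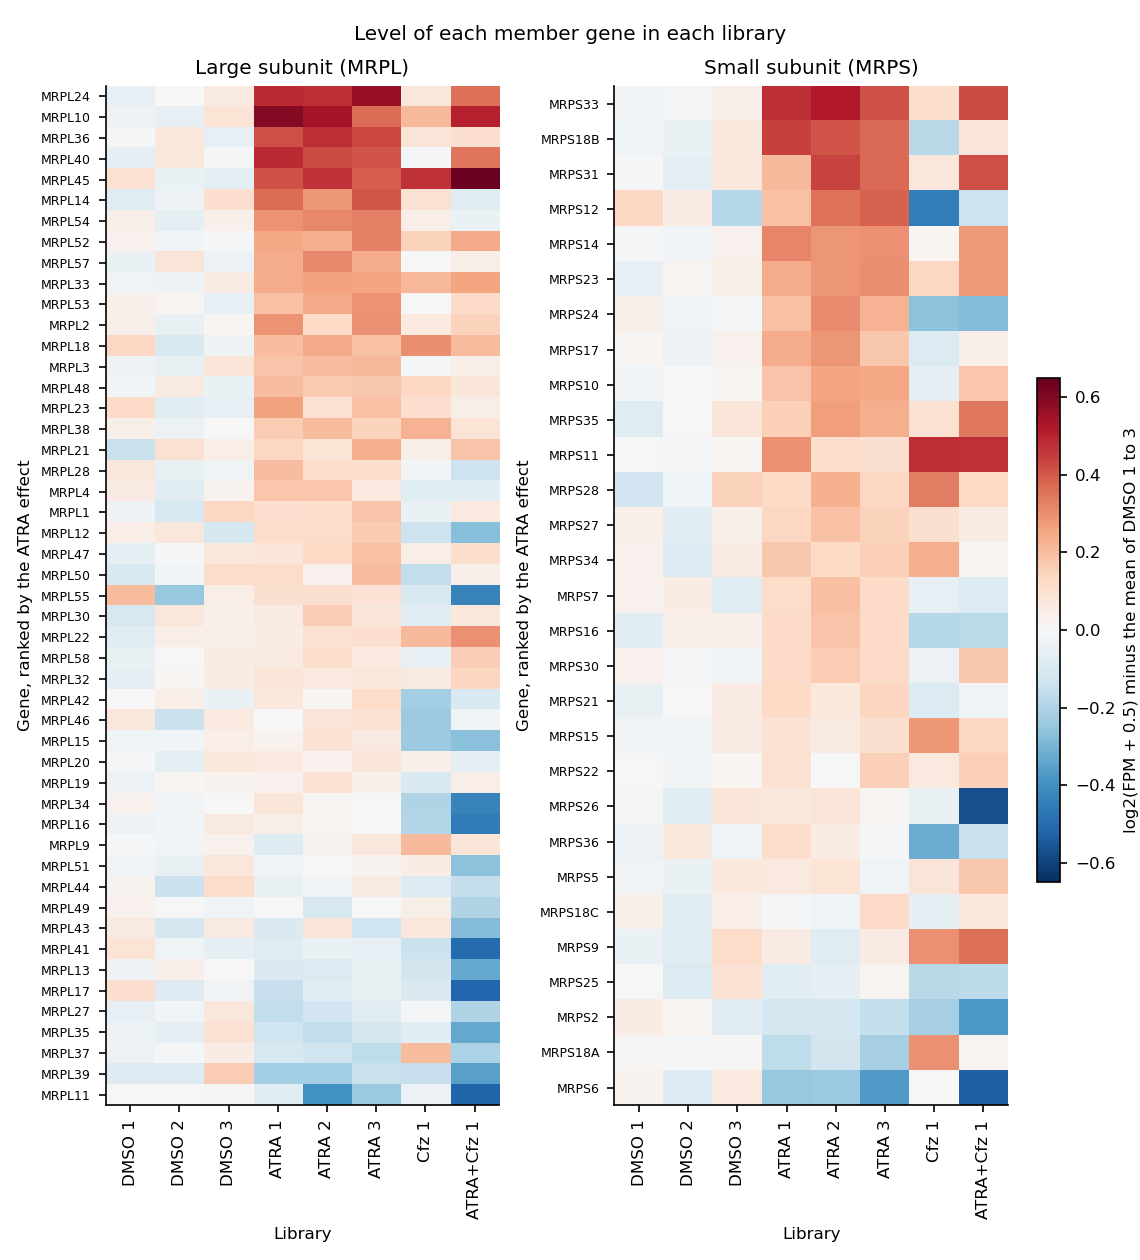
Level of each gene in each library as log2(FPM + 0.5) minus the mean of DMSO 1 to 3, for the 49 MRPL genes (left) and 29 MRPS genes (right), ranked by the ATRA effect. Red is above and blue under the DMSO mean. The upper rows are red in all 3 ATRA libraries. The Cfz column is mixed, and in the ATRA+Cfz column the genes range from -0.57 (MRPS26) to 0.64 (MRPL45).

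With ATRA after Cfz, 16 of the 78 genes were higher against DMSO (20.5%, against 20.0% of all genes tested) and 20 lower (25.6%, against 30.5%). Rises were thus near the share over all genes tested, and falls somewhat under it. The 2 subunits differed in their counts. In the large subunit 6 of 49 genes were higher (12.2%) and 15 lower (30.6%, near the share over all genes tested). In the small subunit 10 of 29 were higher (34.5%) and 5 lower (17.2%). The medians were 0.03 and 0.07, against -0.05 over all genes tested. The balance moves with the processing: 44.4% of the called members were higher, against 55.3% with median-ratio and 57.9% with TMM scaling, and with the correction for GC content and length 29 were higher and 10 lower. Without DMSO 3, 19 were higher and 22 lower.

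MRPL45 was the highest gain, at 60.5 FPM against 41.4, 37.5 and 37.1 FPM with DMSO (0.64, SE 0.08, limma adjusted p = 2.6e-05). It was above the level with either treatment alone. MRPL10 was at 35.4 FPM (0.51, SE 0.10, limma adjusted p = 0.0013), inside the range of the ATRA libraries, and MRPS11 at 43.1 FPM (0.48, SE 0.09, limma adjusted p = 0.00066), the level it had with Cfz alone. MRPS33 was at 116 FPM (0.42, SE 0.06, limma adjusted p = 7e-05), MRPL24 at 79.7 FPM (0.36, SE 0.06, limma adjusted p = 0.00054) and MRPS31 at 23.8 FPM (0.42, SE 0.11, limma adjusted p = 0.0068). MRPS31 is uncertain, because reads may be split with near-identical copies, of which MRPS31P5 stood at 4.73 to 7.09 FPM.

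MRPS26 (chr20:3045945-3048254), a mitochondria-specific protein of the small subunit, fell most. It stood at 25.1, 24.0 and 26.7 FPM with DMSO, at 26.5, 26.8 and 25.5 FPM with ATRA, at 24.4 FPM with Cfz and at 16.8 FPM with ATRA+Cfz (-0.57 against DMSO, SE 0.09, limma adjusted p = 0.0002). The 7 libraries of the other groups lay between 24.0 and 26.8 FPM, and the ATRA+Cfz library lay under all of them. MRPS6 was at 32.1 FPM (-0.53, SE 0.08, limma adjusted p = 0.00019), under its level with ATRA alone, while with Cfz alone it was at 46.6 FPM, inside the DMSO range. MRPL11 was at 32.8 FPM (-0.52, SE 0.10, limma adjusted p = 0.001), MRPL17, a large subunit protein with a bacterial counterpart, at 27.7 FPM against 37.5 to 43.0 FPM with DMSO (-0.52, SE 0.09, limma adjusted p = 0.00035), and MRPL16 at 47.7 FPM against 63.8 to 68.4 FPM (-0.46, SE 0.06, limma adjusted p = 6.9e-05). MRPL41 was at 14.002 FPM against 19.2 to 21.4 FPM (-0.50, SE 0.10, limma adjusted p = 0.0011), and MRPL12, which ATRA alone raised, was at 65.9 FPM (-0.28, SE 0.07, limma adjusted p = 0.0074). MRPL41 and MRPL12 have 71.9% and 64.6% GC in their transcripts, and with the correction for GC content and length their differences turned to 0.068 and 0.071.

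The same ATRA treatment was thus measured against 2 backgrounds, DMSO and Cfz, which share no library. After Cfz, ATRA raised 8 of the 78 genes (10.3%, against 12.8% of all genes tested), 2 large and 6 small subunit genes. It lowered 11 (14.1%, against 17.6% of all genes tested), 8 large and 3 small subunit genes. Both shares were slightly under those over all genes tested. Across the 78 genes, the ATRA effect without Cfz and the ATRA effect after Cfz had a Pearson's r of 0.69 and a Spearman's rho of 0.62. Across all genes tested r was 0.78. Genes are not independent replicates, and the points share libraries, so that no p is given. The medians were 0.13 without Cfz and 0.01 after it. The 4 largest rises after Cfz were those of MRPL40 (26.0 to 33.4 FPM, 0.36, SE 0.10, limma adjusted p = 0.018), MRPS33 (93.4 to 116 FPM, 0.31, SE 0.07, limma adjusted p = 0.0061), MRPL24 (65.3 to 79.7 FPM, 0.29, SE 0.08, limma adjusted p = 0.016) and MRPS18B (42.4 to 50.9 FPM, 0.26, SE 0.08, limma adjusted p = 0.032). All 4 were also among the 7 largest rises without Cfz. MRPL36 and MRPL14, which rose without Cfz, were not called after it: MRPL36 stood at 34.3 FPM with Cfz and 34.9 FPM with ATRA+Cfz (0.02, SE 0.09, limma adjusted p = 0.88), and MRPL14 at 30.1 and 26.5 FPM (-0.18, SE 0.11, limma adjusted p = 0.26).

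The 4 largest falls with ATRA after Cfz were in both subunits. MRPS6 went from 46.6 to 32.1 FPM (-0.53, SE 0.10, limma adjusted p = 0.0019), MRPS26 from 24.4 to 16.8 FPM (-0.52, SE 0.11, limma adjusted p = 0.0034), MRPL11 from 46.2 to 32.8 FPM (-0.49, SE 0.12, limma adjusted p = 0.011) and MRPL17 from 37.3 to 27.7 FPM (-0.42, SE 0.10, limma adjusted p = 0.010). Of these, MRPS6 and MRPL11 also fell with ATRA alone, whereas MRPS26 and MRPL17 were not called there (0.06 and -0.09). The 11 falls became 7 without any 1 ATRA library, and the 8 rises became 5 without ATRA 1. Without DMSO 3 there were 11 rises and 15 falls. MRPS18B was not called without ATRA 1 or ATRA 2.

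**Figure D4:**
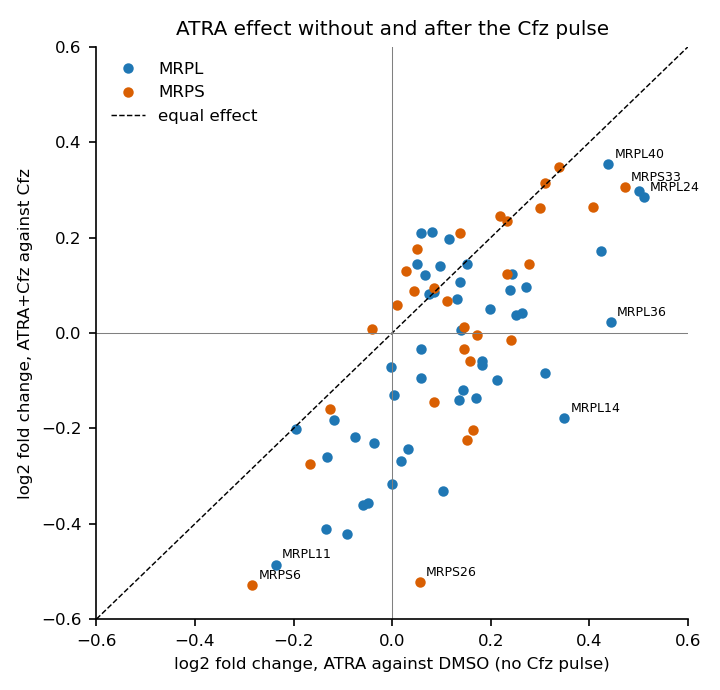
Log2 fold change with ATRA against DMSO (horizontal) and with ATRA+Cfz against Cfz (vertical) for each of the 78 genes, both on log2(FPM + 0.5). The vertical value compares 1 library with 1. The dashed line marks an equal effect. Of the 78 genes, 59 lie under the line, MRPL14, MRPL36 and MRPS26 far under it.

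The difference between the 2 ATRA effects was also tested as an interaction term. It was negative for 59 of 78 genes, with a median of -0.14, against 0.01 over all genes tested. No gene had a called positive term (all genes tested: 0.992% higher). A negative term was called for 1, MRPS26 (1.28%, near the 1.31% of all genes tested), with -0.58 (SE 0.12, limma adjusted p = 0.041). At an unadjusted p under 0.05, 23 genes (29.5%) passed, all with a negative term (all genes tested: 9.26% negative). The next largest terms were those of MRPL14 (-0.53, SE 0.13, limma adjusted p = 0.058) and MRPL36 (-0.42, SE 0.10, limma adjusted p = 0.063). The count rests on single libraries: it was 15 without DMSO 3, and 0 without DMSO 1, DMSO 2 or any 1 ATRA library. Calls over all genes tested, in either direction, moved as well, from 2.30% in the main fit to 12.5% without DMSO 3. They were 1.52% and 1.07% without DMSO 1 or DMSO 2, and 0.0126%, 0.0505% and 0.101% without ATRA 1, 2 or 3. Of the calls over all genes tested, 43.1% were positive, against 22.4% with median-ratio and 31.9% with TMM scaling. The edgeR and DESeq2 tests on recovered reads called no member, with 21 and 11 genes (26.9% and 14.1%) at an unadjusted p under 0.05, all negative (all genes tested: 8.47% and 5.87% negative).

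Seen from the other side, Cfz added to ATRA lowered 23 of the 78 genes against ATRA alone (all genes tested: 20.2% lower), 15 of 49 in the large and 8 of 29 in the small subunit, and raised 2 (all genes tested: 10.6% higher). The median was -0.12, against -0.04 over all genes tested. The rises were those of MRPS9 (38.2 to 41.8 FPM with ATRA, 51.8 FPM with ATRA+Cfz, 0.35, SE 0.09, limma adjusted p = 0.012) and MRPS11 (33.3 to 38.1 and 43.1 FPM, 0.30, SE 0.09, limma adjusted p = 0.020). The 4 largest falls were those of MRPS26 (-0.63, SE 0.09, limma adjusted p = 0.00033), MRPL55, a protein of the large subunit (20.7 to 20.8 FPM with ATRA, 14.1 FPM with ATRA+Cfz, -0.54, SE 0.14, limma adjusted p = 0.014), MRPS24 (77.4 to 83.8 and 55.7 FPM, -0.52, SE 0.06, limma adjusted p = 0.00012) and MRPL16 (65.7 to 67.5 and 47.7 FPM, -0.47, SE 0.06, limma adjusted p = 0.0002). MRPS24 and MRPL16 were also lower with Cfz alone against DMSO, a comparison with which this one shares no library. Across the 78 genes the Cfz effects without and with ATRA had a Pearson's r of 0.64 and a Spearman's rho of 0.62, as a description. The number of rises was 4 without DMSO 1, 5 without DMSO 3 (where 30 genes fell) and 1 without ATRA 2 or ATRA 3, where MRPS11 was not called.

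The GC content of the transcripts moved with the ATRA+Cfz values. Over the 78 genes, Pearson's r of the transcript GC content with the log2 difference was -0.00 for ATRA against DMSO and -0.00 for Cfz against DMSO. It was -0.32 for ATRA+Cfz against DMSO, -0.40 against Cfz, -0.44 against ATRA and -0.55 for the interaction, with -0.14, -0.15, -0.24 and -0.24 over all genes with a transcript. Each comparison with a slope includes the single ATRA+Cfz library, whose treatment and library cannot be told apart here. After a correction for GC content and length, ATRA alone raised 39 genes and lowered 7, Cfz added to ATRA raised 9 and lowered 14, and no interaction term was called, its median being -0.11 over the 78 genes. For MRPS26 (63.4% GC) the corrected differences were -0.25 against DMSO, -0.34 against Cfz and -0.32 against ATRA (limma adjusted p = 0.037, 0.037 and 0.021), smaller but still called, and its interaction term was not called. For MRPL55 (62.9% GC) the corrected difference against ATRA was -0.22 and not called, and for MRPS24 (58.5% GC) it was -0.30 and called.

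**Figure D5:**
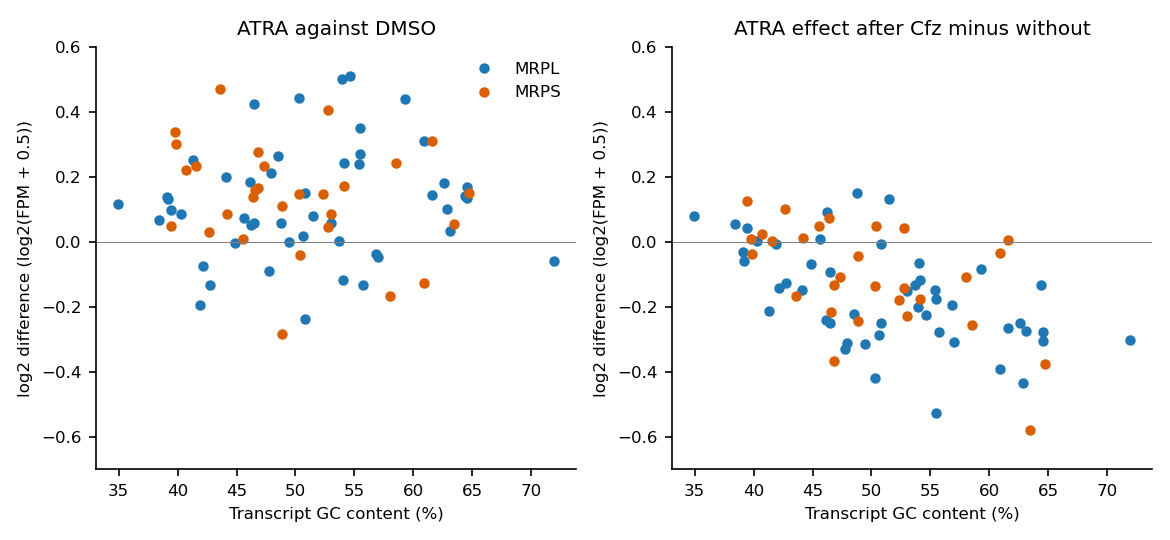
Transcript GC content (%) of each of the 78 genes against its log2 difference for ATRA against DMSO (left) and for the ATRA effect after Cfz minus the effect without it (right). Points are genes, coloured by subunit. The left panel has no slope (r = -0.00), and the right one falls with GC content (r = -0.55).

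The parts of the mitochondrial ribosome whose genes carry no MRP symbol moved in part alike. With ATRA 4 of these 5 rose and none fell, against 21.3% and 27.4% of all genes tested. DAP3, a GTP-binding protein of the small subunit that was first described in cell death, stood at 185, 181 and 195 FPM with DMSO, 262, 266 and 261 FPM with ATRA, 360 FPM with Cfz and 408 FPM with ATRA+Cfz. These are rises of 0.49 (SE 0.04, limma adjusted p = 5.5e-07), 0.94 (SE 0.05, limma adjusted p = 5.4e-07) and 1.13 (SE 0.05, limma adjusted p = 1.2e-08), each of them larger than that of any MRP gene in the same comparison except MRPL24 and MRPL10 with ATRA. PTCD3, an RNA-binding protein of the small subunit, rose by 0.23 with ATRA (SE 0.04, limma adjusted p = 0.00027). GADD45GIP1, a large subunit protein at the exit tunnel, went from 32.7, 29.6 and 30.4 FPM to 41.8, 40.0 and 37.8 FPM with ATRA and 42.5 FPM with Cfz, but to 36.9 FPM with both (0.36, 0.45 and 0.25, limma adjusted p = 0.0003, 0.0025 and 0.025). CHCHD1 was 0.15 higher with ATRA (limma adjusted p = 0.032) and -0.24 with Cfz (limma adjusted p = 0.035). The Cfz call of CHCHD1 was lost with median-ratio and TMM scaling, with edgeR and DESeq2, with the correction for GC content and length, with lane 1 alone, and when DMSO 2 or any 1 ATRA library was left out.

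Among factors that build or serve the mitochondrial ribosome, rises outnumbered falls with ATRA. Of 29 genes for its assembly and the modification of its RNA, 14 rose (48.3%, against 21.3% of all genes tested) and 2 fell (6.90%, against 27.4%). The strongest calls were MRM1, a methyltransferase of the large ribosomal RNA (8.16, 6.88 and 9.37 FPM with DMSO, 16.1, 18.4 and 16.5 FPM with ATRA, 1.03, SE 0.11, limma adjusted p = 1.5e-05), DDX28, a helicase of large subunit assembly (0.61, SE 0.07, limma adjusted p = 2e-05), and NGRN, which the large ribosomal RNA depends on (0.37, SE 0.05, limma adjusted p = 5.9e-05). Of 17 mitochondrial translation factors, 12 rose (70.6%) and none fell. Among them were GFM2, which recycles ribosomes (64.1 ± 2.7 to 89.8 ± 3.8 FPM, SD, n = 3, 0.48, SE 0.05, limma adjusted p = 5.7e-06), MTRES1, which rescues stalled ones (0.52, SE 0.06, limma adjusted p = 2.1e-05), and TUFM, the elongation factor that brings in the tRNAs (0.30, SE 0.04, limma adjusted p = 6.3e-05). With Cfz alone 3 assembly genes were higher and 2 lower (10.3% and 6.90%, against 7.94% and 17.0% of all genes tested). The rises were near the share over all genes tested, and the falls were under it. Of the translation factors 1 was higher (GFM1, 0.23, limma adjusted p = 0.0037) and 2 lower (MTFMT, -0.39, limma adjusted p = 0.011, and GUF1, -0.21, limma adjusted p = 0.023), or 5.88% and 11.8%. The call of GUF1 was lost with median-ratio and TMM scaling, with edgeR and DESeq2, with lane 1 alone, and with the correction for GC content and length. With ATRA+Cfz 6 assembly genes were higher and 5 lower (20.7% and 17.2%), and 8 translation factors higher and 1 lower (47.1% and 5.88%), against 20.0% and 30.5% of all genes tested.

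Of 16 nuclear regulators of mitochondrial genes and factors of mitochondrial transcription, 4 rose with ATRA (25.0%, against 21.3% of all genes tested) and 7 fell (43.8%, against 27.4%), the rises being near the background. MYC, a transcription factor of growth and ribosome production, went from 338, 339 and 340 FPM to 674, 674 and 667 FPM (0.99, SE 0.03, limma adjusted p = 5.8e-10), stayed at 339 FPM with Cfz and was at 569 FPM with ATRA+Cfz. PPARGC1A, a coactivator of mitochondrial biogenesis, stood at 32.8, 34.6 and 31.7 FPM with DMSO and 20.1, 17.7 and 17.5 FPM with ATRA (-0.83, SE 0.07, limma adjusted p = 1.7e-06). Some of the factors whose motifs were counted in the promoters are on this list. MYC thus rose, although its E-box was in 8.70% of member promoters, against 8.88% of all. GABPA, YY1 and NRF1 fell: GABPA by -0.38 (92.1 ± 5.3 to 70.6 ± 2.7 FPM, SD, n = 3, limma adjusted p = 6.2e-05), YY1 by -0.33 (limma adjusted p = 4.7e-05) and NRF1, nuclear respiratory factor 1, by -0.20 (limma adjusted p = 0.029), the last a call lost under several settings. Factors of the other motifs are not given here. TFAM, which packs mitochondrial DNA, fell by -0.17 (limma adjusted p = 0.0041), and TFB2M, which starts mitochondrial transcription, rose by 0.36 (limma adjusted p = 3.8e-05). With Cfz alone 1 rose (6.25%, against 7.94% of all genes tested) and 5 fell (31.2%, against 17.0%). Among the falls were GABPA (-0.44, limma adjusted p = 0.0011) and YY1 (-0.30, limma adjusted p = 0.0041). With ATRA+Cfz 2 rose (12.5%, against 20.0% of all genes tested) and 9 fell (56.2%, against 30.5%). The YY1 call with Cfz was lost with DESeq2 and with the correction for GC content and length.

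Transcripts of the mitochondrial genome, which the mitochondrial ribosome translates or contains, were mostly lower with ATRA: 1 of 15 rose (6.67%, against 21.3% of all genes tested) and 8 fell (53.3%, against 27.4%). ATP6, a subunit of the ATP synthase, stood at 2248, 2243 and 3047 FPM with DMSO and 1881, 1725 and 1820 FPM with ATRA (-0.46, SE 0.10, limma adjusted p = 0.002), and CYTB of complex III changed by -0.46 (SE 0.10, limma adjusted p = 0.0024). DMSO 3 was the highest control in both genes, while every ATRA library was under every control. With Cfz 3 of 15 rose (20.0%, against 7.94% of all genes tested) and none fell (all genes tested: 17.0% lower). Among the rises was COX2 (4001, 4004 and 4797 FPM with DMSO, 5569 FPM with Cfz, 0.39, SE 0.10, limma adjusted p = 0.012). With ATRA+Cfz 5 rose (33.3%, against 20.0% of all genes tested) and none fell (all genes tested: 30.5% lower). The calls of ATP6, CYTB and COX2 were lost with robust variance estimates. Counts for the genes of the mitochondrial genome are given only with DMSO 3 in the fit. Their share of FPM with Cfz (5.43%) and ATRA+Cfz (5.72%) lay under that of DMSO 3 (5.85%). It lay above those of DMSO 1 (4.12%) and DMSO 2 (4.09%), so the counts against DMSO lean on which controls are used. The difference of ATRA+Cfz from ATRA takes no DMSO level. Its median over these 15 genes was 0.75, against -0.04 over all genes tested, with 14 of 15 values above 0. It rests on 1 ATRA+Cfz library.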

How the data were processed

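Total RNA of the 8 MM.1S libraries was sequenced in 4 lanes each, which gives the 32 samples. Per the submitters' processing notes, reads were handled with fastp 0.20.0, kallisto 0.46.2 and DESeq2 (version not stated). No source used here gives the annotation, the genome build or the strand setting. The authors deposited FPM values per lane, a CPM unit scaled to a fixed total per column. The values are steps of 1 read, so whole reads were recovered for 100% of them within 0.01 read. The 143 gene IDs that stand on more than 1 line were used once.

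Lanes were averaged per library. limma 3.58.1 (R 4.3.3), with an intensity trend, was fitted on log2(FPM + 0.5) for the 15827 genes with a mean of the 4 group means of at least 0.5 FPM, with all libraries in 1 fit (4 residual and 7.21 prior degrees of freedom) and Benjamini-Hochberg adjustment over all genes tested. The pseudocount understates the change of low genes. The single libraries with Cfz had no replicate, and their spread was assumed to equal that of DMSO and ATRA. Nothing in the labels ties libraries to separate cultures, so a p-value covers only differences among libraries, possibly technical ones, and depth intervals would cover counting error only. Alternatives were median-ratio and TMM scaling, edgeR 4.0.16 and DESeq2 1.42.0 on the recovered reads, other pseudocounts and filters, robust variances, 1 lane, single libraries left out, a replicate block, subunits by structure and a correction for transcript GC content and length, which for the sums was added after seeing the data. On simulated data of the ATRA comparison with 15827 genes, 99% of genes changed by 0.5 and 100% of genes changed by 1 on the log2 scale were called, with 13 unchanged genes called. The simulated spread between libraries was a set value, not one estimated from the data, and genes of low expression were not changed. The median change of the 78 genes with ATRA, 0.13, was under both simulated sizes, so these shares do not describe how often such changes are called.

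Coordinates are those of GENCODE 29 (GRCh38), matched by gene ID. The members and lists were chosen with earlier results of these data known. The text names, among called members, the up to 8 largest changes in each direction with ATRA, 6 with Cfz and with ATRA+Cfz against DMSO and 4 in the other comparisons, the 4 highest and 4 lowest levels per kb, MRPS18A, MRPS18B, MRPS18C, MRPS30, MRPS36, MRPL12 and MRPL58, up to 3 genes with the smallest p of each other list, and MYC, TFAM, NRF1, GABPA and DAP3. MRPL46, MRPL14 and MRPL36 where they were not called, and all genes at head-to-head pairs, were named after their values had been seen.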

Additional observations from a re-analysis of the deposited data

Results flagged for a closer look

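For 5 of the genes named here the interaction term of the fit, the ATRA effect after Cfz minus that without it, was called. These are MRPS26 (-0.58, SE 0.12, limma adjusted p = 0.041), the large subunit gene GADD45GIP1 (-0.57, SE 0.12, limma adjusted p = 0.035), the regulator GABPA (0.45, SE 0.10, limma adjusted p = 0.044) and the plasma cell genes CD38 (0.64, SE 0.13, limma adjusted p = 0.029) and MZB1 (-0.36, SE 0.07, limma adjusted p = 0.024). The values are differences between log2 fold changes, and each rests on 1 Cfz and 1 ATRA+Cfz library. None of the 5 calls held with the GC content and length correction or without any 1 of the ATRA libraries. Of 17 alternatives, the call was lost under 9 for MRPS26, 7 for GADD45GIP1, 10 for GABPA, 4 for CD38 and 6 for MZB1, while no term changed sign. MRPS26 was at 24.4 FPM with Cfz and 16.8 FPM with ATRA+Cfz, while its DMSO and ATRA libraries were at 24.0 to 26.8 FPM. GADD45GIP1 was 0.36 higher with ATRA against DMSO and -0.20 with ATRA+Cfz against Cfz, the latter not called. GABPA had 92.1 ± 5.3 FPM in the DMSO and 70.6 ± 2.7 FPM in the ATRA libraries (SD, n = 3), 67.6 FPM with Cfz and 71.1 FPM with ATRA+Cfz. CD38 was at 39.0 FPM with Cfz and 376 FPM with ATRA+Cfz, and MZB1 at 342 and 381 FPM.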

How the results depend on the processing

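Of the single-gene results, 3 of 118 turned direction: MRPS9 with Cfz in lane 1 alone (-0.036), and MRPL41 and MRPL12 with ATRA+Cfz after the GC content and length correction (0.068 and 0.071). Member counts that moved were as follows. With ATRA, higher calls were 18 in lane 1 alone, and lower calls were 2 with median-ratio scaling, 2 with TMM, 2 with edgeR, 1 with DESeq2, 0 in lane 1 and 2 to 5 with a library left out. With Cfz, higher calls were 7 with DESeq2, 3 in lane 1 and 5 to 16 with a library left out, and lower calls were 2 with median-ratio scaling, 4 with TMM, 0 with DESeq2, 2 in lane 1 and 3 with the GC correction. With ATRA+Cfz against DMSO, higher calls were 8 in lane 1 and 29 with the GC correction, and lower calls 8 with DESeq2, 9 in lane 1 and 10 with the GC correction. Against Cfz, higher calls were 1 with DESeq2, 2 in lane 1 and 5 to 11 with a library left out, and lower calls 6 with edgeR, 4 with DESeq2, 1 in lane 1 and 7 to 15 with a library left out. Against ATRA, higher calls were 4 with median-ratio scaling, TMM, edgeR or a filter of 2 FPM, 1 with DESeq2, 0 in lane 1, 9 with the GC correction and 1 to 5 with a library left out, and lower calls 9 with DESeq2, 6 in lane 1 and 14 with the GC correction. Negative interaction calls were 6 with median-ratio scaling, 2 with TMM, 0 with edgeR, DESeq2, lane 1 or the GC correction, 3 with a filter of 2 FPM or robust variances, and 0 to 15 with a library left out. Interaction calls over all genes tested, in either direction, also ran from 0.0126% to 12.5% with a library left out. Lane 1 holds fewer reads, and for the other settings the cause was not tested.

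Subunits placed by structure summed to 2556 and 1488 FPM with DMSO (ratio 0.582), 2741 and 1667 with ATRA (0.608), 2580 and 1514 with Cfz (0.587) and 2498 and 1568 with ATRA+Cfz (0.628), large before small. Median-ratio scaling gave a large subunit sum of 2399 FPM with DMSO and sums of 2531 and 1691 with Cfz and 2419 and 1744 with ATRA+Cfz. The GC correction gave a ratio of 0.662 with DMSO, and sums of 2571 and 1786 with ATRA, 2559 and 1699 with Cfz and 2496 and 1786 with ATRA+Cfz. Deviations of DMSO and ATRA libraries with the same replicate number had r = 0.07, 0.01 and 0.05 over 9203 genes. Those of pairs with different numbers ran from -0.09 to 0.02. With 3 libraries per group, these values cannot show whether libraries with the same number were prepared together. With the replicate block, ATRA raised 35 members and lowered 5, and with the block and the GC correction 38 and 7. Lone libraries limit the Cfz comparisons, since their own spread was not measured.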

Other observations

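Several of the genes share a start region with a gene of another function, and the partners did not always have values like theirs. The log2 differences with ATRA were 0.26 for MRPL57 and -0.79 for SKA3, a spindle gene that starts 43 bp away, -0.08 for MRPL13 and -0.82 for MTBP, and -0.00 for MRPL51 and -0.73 for the condensin gene NCAPD2. With Cfz they were -0.45 for MRPS12 and 0.34 for SARS2, which encodes the mitochondrial seryl-tRNA synthetase, and 0.06 for MRPL32 and 0.38 for PSMA2, a proteasome subunit. With ATRA+Cfz against DMSO they were -0.52 for MRPL11 and 0.81 for PELI3. In other pairs the values were near each other, such as 0.20 for MRPL18 and 0.14 for the chaperonin gene TCP1 with ATRA+Cfz. These partners were chosen after their values had been seen, no test was made on the pairs, and overlapping pairs may share reads.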
